A study of Mus musculus with 8 samples.

Results

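The genes described here encode axon guidance molecules: the semaphorins and their plexin receptors, the Slits and their Robo receptors, the netrins and their receptors (Dcc, Neo1 and the Unc5 family), and the A-class ephrins with their EphA receptors. They were chosen by a rule on gene symbols, with earlier results of these data known. Of the 23284 gene symbols counted in the study, 60 belonged to these families. Of the 60, 32 encode ligands and 28 encode receptors. The study asked what Notch3 activity changes in a mouse model of metastatic ovarian cancer. Polyadenylated RNA was sequenced from ID8 IP2 cells, a subline of the mouse ovarian surface epithelial line ID8 that had been passaged in C57BL/6 mice. Control cells were infected with virus from an empty pCCL vector, and Notch3IC cells with virus from the same vector carrying an HA-tagged Notch3 intracellular domain followed by IRES-GFP. Both kinds of line also carried a luciferase-mCherry vector (FUW-luciferase-mCherry), and by the study's methods, tests made afterwards point to mycoplasma in every ID8 IP2 line during the experiments. There were 4 Control and 4 Notch3IC libraries, 1 of each in Sets 1 to 4, each set being a matched pair of lines. What drives the insert, whether the lines are clonal and whether all cells carried it were not given in the sources used here, and the intracellular domain was supplied without its extracellular part, so ligand-dependent signalling was not modelled. Reads counted on genes, in set order, came to 24910528, 19013578, 23601232 and 28208072 for Control and to 22980440, 15524262, 25344051 and 27107061 for Notch3IC. As n was 4 lines of 1 parental line per condition, p-values measure the spread between these lines.

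Guidance molecules were first described as cues that steer growing axons, and the same ligands and receptors act between cells in vessels, epithelia and tumours. Class 3 semaphorins are secreted and mostly bind neuropilins, which signal through plexins, whereas class 4 to 7 semaphorins are membrane-bound and mostly bind plexins directly. Slits signal through Robos, netrins attract through Dcc and Neo1 or repel through Unc5 receptors, and A-class ephrins are anchored to the cell surface and meet EphA kinases on neighbouring cells.

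The labels were checked on Notch3 and on 3 of its targets. Normalized counts of Notch3 (counts scaled to the mean library size, here and below) stood at 38.6, 40.6, 70.8 and 42.0 in Control cells of Sets 1 to 4, and at 4319, 467, 9214 and 5838 in their Notch3IC partners. Notch3 rose by 6.69 on the log2 scale (edgeR quasi-likelihood test, Benjamini-Hochberg adjusted p = 0.0169), and the Notch3IC library of Set 2 had the least of it. The transcriptional repressor Hey1 rose by 7.35 and Nrarp, a feedback regulator of Notch, by 7.34 on the log2 scale, each with an edgeR adjusted p of 0.0169. A gene on the other strand overlaps 79.4% of the exon bases of Nrarp, and their reads cannot be told apart without strand. Heyl, a relative of Hey1 with at most 2 counts in any Control library, was at least 1110-fold higher, against a floor of 3 counts per library. It had 2154, 215, 6856 and 3907 normalized counts in Notch3IC cells of Sets 1 to 4, so the limit leans on the library of Set 3.

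In Notch3IC cells, 8 of the guidance genes rose: 5 ligand genes (Sema3g, Sema6d, Slit1, Slit2 and Ntn4) and 3 receptor genes (Plxnd1, Robo1 and Epha3). The largest changes were those of Plxnd1, Epha3 and Sema3g, which rose by 5.92 ± 0.79, 4.93 ± 0.60 and 4.83 ± 0.88 on the log2 scale (± SE, n = 4 per condition). Calls required an adjusted p under 0.1 and a change past 1 log2 unit either way. Of the 60 genes, 48 had enough counts to be tested, so 8 of 48 were called higher, beside 3.4% of all 12430 genes tested, and 0 of 48 were called lower, beside 0.74%. At an unadjusted p under 0.05, edgeR gave 15 members as higher and 5 as lower, beside 11.8% and 6.65% of all genes. DESeq2 gave an adjusted p to 51 members, but not to Sema4f. It called 11 of the 51 higher and 0 lower, beside 5.05% and 1.37% of the 14019 genes it gave an adjusted p. With the matched set as a block, which lowered the biological coefficient of variation from 26.3% to 14.1%, edgeR called 9 members higher, beside 5.19% of all genes, and 5 lower, beside 2.53%. The block removed the call of Ntn4, whose log2 fold change of 0.97 was then under the limit (adjusted p = 0.0577), and added Ntn1 and Robo2 among the higher genes and Sema3c, Sema3d, Sema4f, Plxna4 and Plxnb3 among the lower ones. With Set 1, 3 or 4 left out, the block gave 0 members called in either direction. Over all genes these fits called 0.368%, 0.475% and 1.04% higher and 0.184%, 0.177% and 0.242% lower.

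The values of the family lay on both sides of 0. The median log2 fold change of the 48 genes was 0.00, with 24 values above 0 and 24 below, and that of all genes tested was -0.01. As normalization centres the values of all genes, a median near 0 does not decide whether the family shifted. The size of the changes stood apart from their direction: the median absolute log2 fold change was 0.60 in the guidance genes and 0.18 over all genes tested. The guidance genes were also counted less, with a median of 339 normalized counts per gene over the 8 libraries beside 795 for all genes tested, and the part of that difference was not tested. Summed normalized counts of the 60 genes lay between 89421 and 101053 in the Control libraries and between 97250 and 106064 in the Notch3IC libraries, so the ranges overlapped. All Control libraries lay below all Notch3IC libraries for 7 of the 48, beside 7.08% of all genes, and the reverse held for 0, beside 3.75%. In bulk RNA, fewer cells that express a gene and less of its RNA per cell cannot be told apart.

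The change differed in size between sets. In Set 1, 12 guidance genes were at least 1 log2 unit higher in the Notch3IC library and 7 at least 1 lower, beside 6.77% and 4.06% of all genes. In Set 2 the numbers were 5 and 2, beside 2.13% and 1.56%. Set 3 had 9 and 7, beside 7.28% and 4.6%, and Set 4 had 13 and 9, beside 8.5% and 4.3%. Set 2, in which Notch3 differed least (3.51 on the log2 scale, against 6.79, 7.01 and 7.10 in Sets 1, 3 and 4), also had the smallest median absolute ratio of the guidance genes, 0.28 against 0.81, 0.77 and 0.91. It was the smallest over all genes as well, at 0.11 against 0.25 in each of the others, and its Notch3IC library was the shallowest. Whether the level of Notch3 or the depth played a part was not tested. In all 4 sets, 14 guidance genes were higher and 13 lower, which is 29.2% and 27.1% of the 48, beside 21% and 19.4% of all genes tested.

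**Figure D1:**
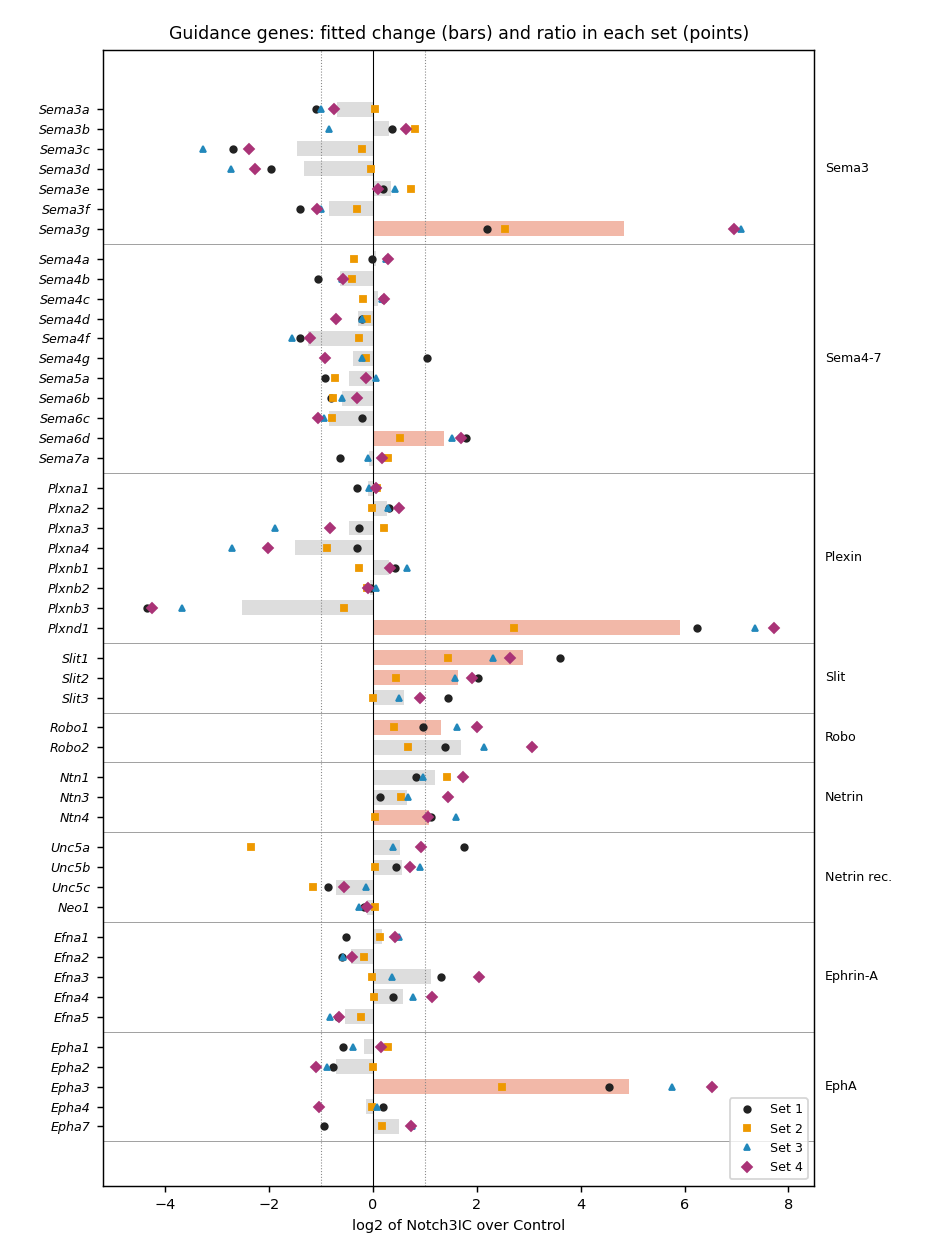
Log2 ratio of Notch3IC over Control for the 48 guidance genes tested, by family. Bars are the fitted change over 4 libraries per condition, shaded red for the 8 called genes, points are the ratio within each set, and dotted lines mark a log2 value of 1 in either direction. Points of Set 2 lie closest to 0 for 31 of the 48 genes and for 7 of the 8 called ones.

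Among the secreted class 3 semaphorins, 1 of 7 rose and 0 were called lower. Sema3g, a class 3 semaphorin known from arterial endothelium, had 21.8, 14.3, 2.87 and 3.96 normalized counts in Control, in set order here and below, and 102, 86.4, 456 and 555 in the Notch3IC libraries. Every Notch3IC library was above every Control library, and Sets 3 and 4 moved most, with the lowest Control and the highest Notch3IC values. The rise was 4.83 ± 0.88 on the log2 scale (adjusted p = 0.0298). It missed the threshold when Control of Set 3 was left out (4.51, adjusted p = 0.107), and likewise for Control of Set 4 (4.52, adjusted p = 0.116).

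Sema3c and Sema3d had the highest levels per kilobase of exon of the class in Control cells and were the members with the largest negative values. Sema3c, a ligand that acts through neuropilins, had 6785, 13798, 13600 and 11521 normalized counts in the Control libraries and 1050, 11846, 1404 and 2199 in the Notch3IC libraries. The Notch3IC libraries of Sets 1, 3 and 4 were below every Control library, and that of Set 2 was among them. The log2 fold change was -1.47 ± 0.75 (adjusted p = 0.342), and within Sets 1 to 4 the log2 ratio was -2.69, -0.22, -3.28 and -2.39. With the set block Sema3c fell by 2.19 on the log2 scale (adjusted p = 0.0529), and by 2.88 once Notch3IC of Set 2 was left out (adjusted p = 0.00319). The block with Set 1, 3 or 4 left out gave -2.00, -1.79 and -2.10, with adjusted p of 0.175, 0.211 and 0.237.

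Sema3d, a class 3 ligand with a part in cardiovascular development, followed the same pattern. It had 2821, 4974, 5847 and 4974 normalized counts in the Control libraries and 718, 4871, 876 and 1021 in the Notch3IC libraries, with Set 2 again the library among the Controls. Its log2 fold change was -1.32 ± 0.62 (adjusted p = 0.304), it fell by 1.78 on the log2 scale with the set block (adjusted p = 0.0610), and by 2.42 once Notch3IC of Set 2 was left out (adjusted p = 0.00228).

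The makeup of the class therefore differed between libraries. Per kilobase, Sema3c made up 52.4%, 63.2%, 58.8% and 57.6% of the class 3 semaphorin level in the Control libraries and 23.7%, 58.6%, 23.7% and 31.9% in the Notch3IC libraries. Sema3g made up 0.0195% to 0.265% in Control and 3.61%, 0.672%, 12.1% and 12.6% in Notch3IC. Sema3e, singled out here because it binds plexin-D1 without a neuropilin, had 1641, 1070, 1156 and 1462 normalized counts in Control and 1882, 1781, 1551 and 1553 in Notch3IC, with overlapping groups and a log2 fold change of 0.34 ± 0.15 (adjusted p = 0.265). Sema3a, the founding axon repellent of the class, passed the adjusted p but not the fold limit, at -0.70 ± 0.18 (adjusted p = 0.0710), and is named here after its values were seen. The other 2, Sema3b and Sema3f, had log2 fold changes of 0.30 and -0.85 and were not called.

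**Figure D2:**
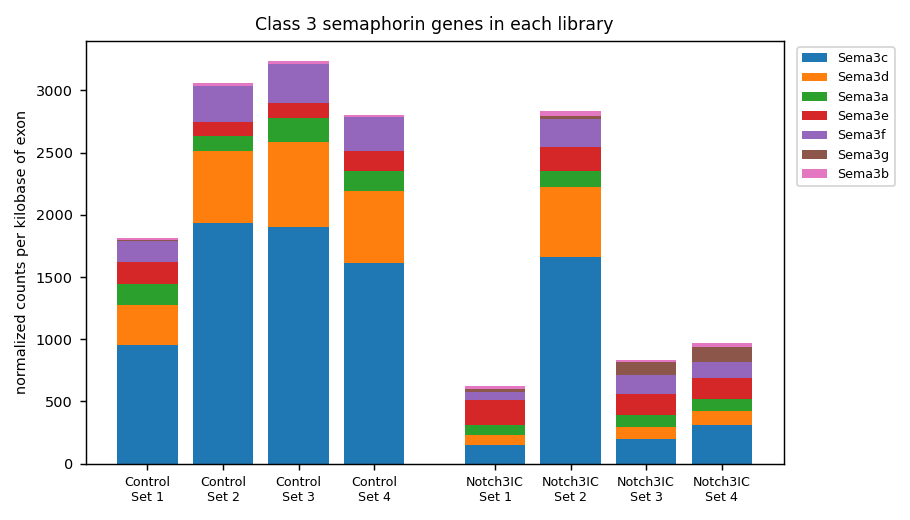
Normalized counts per kilobase of exon of the 7 class 3 semaphorin genes in each library, stacked from 0. The Control bars and the Notch3IC bar of Set 2 consist mostly of Sema3c and Sema3d, and the Notch3IC bars of Sets 1, 3 and 4 are lower with less of both.

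A group of 4 genes of the class lie along one stretch of chromosome 5 (GRCm38): Sema3d at chr5:12383385-12588948, Sema3a at chr5:13125414-13602565, Sema3e at chr5:14025276-14256689 and Sema3c at chr5:17574281-17730268, all on the plus strand. Their log2 fold changes were -1.32, -0.70, 0.34 and -1.47 in that order, so the values along the stretch did not share a direction. Sema3g lies at chr14:31217860-31230352 on the plus strand.

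Of the 13 membrane-bound semaphorins of classes 4 to 7, 11 were tested, 1 rose and 0 were called lower. Sema6d, which binds plexin-A1, had 188, 518, 483 and 404 normalized counts in Control and 657, 741, 1382 and 1308 in Notch3IC. All Notch3IC libraries were above all Control libraries, and Set 2 had the smallest ratio. It rose by 1.36 ± 0.36 on the log2 scale (adjusted p = 0.0823). The call was lost without the Control library of Set 2, 3 or 4 or the Notch3IC library of Set 3 or 4, with log2 fold changes of 1.18 to 1.51 and adjusted p of 0.102 to 0.234, and with scaling by library totals alone (1.32, adjusted p = 0.114).

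Sema6a, a plexin-A2 and plexin-A4 ligand, was not counted in any Control library, and had 64, 3, 15 and 42 raw counts in Notch3IC cells, in set order. These few counts kept it from the main test, but DESeq2 called it (adjusted p = 9.12e-06). Against a floor of 3 counts per library, its mean of 31.3 normalized counts in Notch3IC was at least 10.6-fold higher. That mean held values of 71.5, 4.39, 13.8 and 35.5 in set order, so the limit leans on the library of Set 1. The library of Set 2 was itself at the floor.

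Sema4f is a class 4 member found in brain. It had 716, 88.3, 82.3 and 65.8 normalized counts in Control and 272, 73.2, 27.6 and 27.9 in Notch3IC, and both libraries of Set 1 were above all the others. Its log2 fold change was -1.26 ± 1.02 (adjusted p = 0.575), but it fell by 1.13 on the log2 scale with the set block (adjusted p = 0.0368), and its log2 ratios in Sets 1 to 4 were -1.40, -0.27, -1.56 and -1.22. The value turned to 0.34 (adjusted p = 0.868) when the Control library of Set 1 was dropped and its high Notch3IC partner kept, and was -0.91 (adjusted p = 0.256) with both libraries of Set 1 dropped.

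Sema4b, the tested member of these classes with the highest level per kilobase in Control (205, beside 162 for Sema4c) but not in Notch3IC (133, beside 173), had 1154, 1442, 927 and 1105 normalized counts in Control and 553, 1084, 611 and 743 in Notch3IC. The groups overlapped through Set 2, and the log2 fold change was -0.63 ± 0.23 (adjusted p = 0.179). The log2 fold changes of the 8 remaining genes ran from -0.84 (Sema6c) to 0.09 (Sema4c), none called. Sema5b had 0 counts in all libraries.

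Of the 9 plexin genes, 8 were tested, and Plxnd1 was the 1 that rose. Plexin-D1 is best known as the receptor that guides growing vessels. Plxnd1 had 108, 310, 70.8 and 46.7 normalized counts in the Control libraries and 8229, 2041, 11740 and 9938 in the Notch3IC libraries. The lowest Notch3IC value, in Set 2, was several times the highest Control value, also in Set 2. It rose by 5.92 ± 0.79 on the log2 scale (adjusted p = 0.0169), was called in all 8 fits that each left out 1 library (5.62 to 6.74), and had log2 ratios of 6.24, 2.72, 7.36 and 7.72 in Sets 1 to 4. Without both libraries of Set 3 the log2 fold change was 5.46 (adjusted p = 0.215), and without those of Set 4 it was 5.51 (adjusted p = 0.221).

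Per kilobase of exon, Plxnd1 went from 18.3 to 1094 normalized counts between the conditions. It made up 0.161% to 0.979% of the plexin level in the Control libraries and 22.2%, 6.62%, 28.4% and 27.1% in Notch3IC cells, in set order. Plxnb2, a receptor for class 4 semaphorins, had the highest level per kilobase of all guidance genes in both conditions, at 2718 ± 158 (SD, n = 4) in Control and 2634 ± 205 in Notch3IC. It had 19546, 22333, 21566 and 20479 normalized counts in Control and 19054, 20502, 22504 and 19280 in Notch3IC, with overlapping groups and a log2 fold change of -0.05 ± 0.10 (adjusted p = 0.870).

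**Figure D3:**
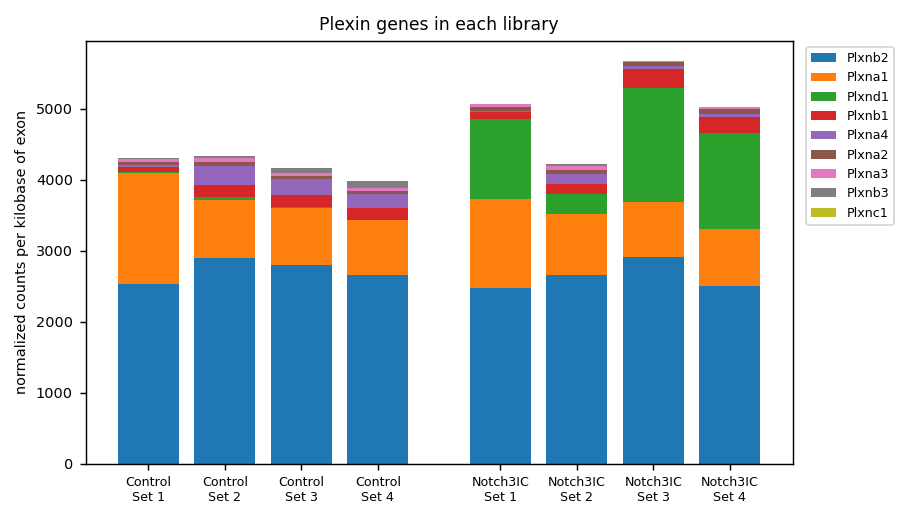
Normalized counts per kilobase of exon of the 9 plexin genes in each library, stacked from 0. Plxnb2 is the largest part of every bar, and the part of Plxnd1, under 1% in each Control library, is 6.62% to 28.4% in the Notch3IC libraries.

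Plxna4 and Plxnb3 had values in the opposite direction. Plxna4, a co-receptor for Sema3a and a receptor for class 6 semaphorins, had 441, 3720, 3117 and 2763 normalized counts in Control and 358, 2024, 471 and 677 in Notch3IC. The Control library of Set 1 lay within the Notch3IC range. The log2 fold change was -1.51 ± 0.71 (adjusted p = 0.307), and with the set block it fell by 1.51 on the log2 scale (adjusted p = 0.0681). Plxnb3, a receptor for Sema5a, had 55.5, 261, 450 and 620 normalized counts in Control and 2.24, 179, 34.9 and 32.1 in Notch3IC. Sets 1, 3 and 4 differed by -4.36, -3.67 and -4.25 and Set 2 by -0.55 on the log2 scale. Its log2 fold change was -2.52 ± 1.04 (adjusted p = 0.240), and it fell by 2.94 with the set block (adjusted p = 0.0566). Leaving out the Notch3IC library of Set 2 gave calls for both genes, at -2.32 for Plxna4 (adjusted p = 0.0704) and -3.87 for Plxnb3 (adjusted p = 0.0498). Plxna1, Plxna2, Plxna3 and Plxnb1 ranged from -0.46 to 0.30, none called, and Plxnc1 was not tested.

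**Figure D4:**
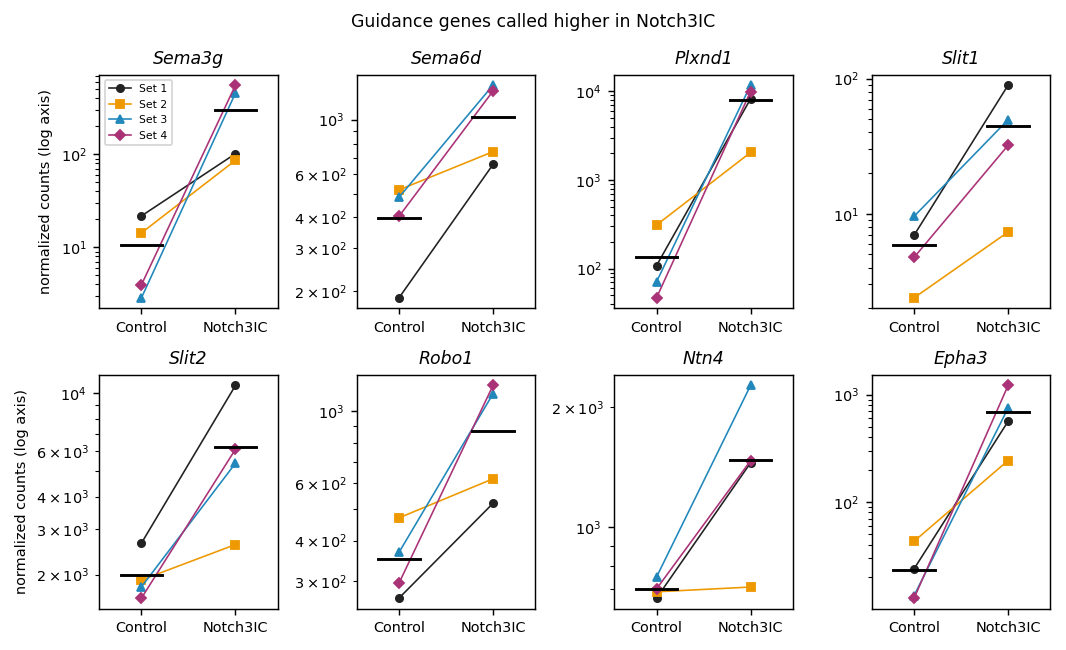
Normalized counts of the 8 called guidance genes, Control beside Notch3IC, on log axes that differ between panels. Each line joins the 2 libraries of a set and black bars are means of 4 libraries. All lines rise, and the line of Set 2 is the flattest for 7 of the 8 genes.

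All 3 Slit genes had positive values, and Slit1 and Slit2 rose. Slit2, the best studied of these secreted repellents, had 2644, 1905, 1793 and 1622 normalized counts in Control and 10731, 2611, 5375 and 6089 in Notch3IC. The groups touched, since the Notch3IC library of Set 2 was just under the Control library of Set 1. Slit2 rose by 1.64 ± 0.38 on the log2 scale (adjusted p = 0.0578). It missed the threshold without the Control library of Set 2, 3 or 4 or the Notch3IC library of Set 3 or 4, at 1.55 to 1.70 with adjusted p of 0.113 to 0.185.

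Slit1 was counted at low levels, with 6.94, 2.39, 9.57 and 4.75 normalized counts in Control and 89.4, 7.32, 49.6 and 32.1 in Notch3IC. The Notch3IC library of Set 2 lay within the Control range and the others above it. It rose by 2.88 ± 0.71 on the log2 scale (adjusted p = 0.0679), a call that held in 1 of the 8 fits without a single library, the one without the Notch3IC library of Set 2; in the others the value was 2.33 to 3.20 with adjusted p of 0.104 to 0.214. Slit3, the Slit with the highest level per kilobase, had 2367, 7894, 6715 and 4543 normalized counts in Control and 6479, 7886, 9584 and 8469 in Notch3IC, with overlapping groups and 0.59 ± 0.33 (adjusted p = 0.390). Summed over the 3 genes, the Slit counts came to 5018, 9802, 8517 and 6170 for Control and to 17300, 10504, 15009 and 14590 for Notch3IC.

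Of the 4 Robo genes, Robo1 and Robo2 were tested. Robo1, the main Slit receptor gene here by level per kilobase, had 267, 470, 368 and 296 normalized counts in Control and 521, 619, 1129 and 1198 in Notch3IC, without overlap. It rose by 1.31 ± 0.31 on the log2 scale (adjusted p = 0.0591). Without the Control or the Notch3IC library of Set 3 or 4 it missed the threshold, at 1.12 to 1.33 with adjusted p of 0.154 to 0.189.

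Robo2, a second Slit receptor, had 35.7, 150, 43.0 and 39.6 normalized counts in Control and 93.9, 240, 191 and 334 in Notch3IC. The groups overlapped because the Control library of Set 2 was high. The log2 fold change was 1.69 ± 0.56 (adjusted p = 0.152), and the gene rose by 1.81 with the set block (adjusted p = 0.0448), by 1.67 in DESeq2 (adjusted p = 0.0269) and by 2.44 without that library (adjusted p = 0.0418). Robo1 and Robo2 are neighbours on chromosome 16, at chr16:72308306-73046095 on the plus strand and chr16:73891839-74411825 on the minus strand (GRCm38), and Epha3 lies on the same chromosome at chr16:63543534-63864175. Robo3 and Robo4, the latter an endothelial Robo, had too few counts to be tested.

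The 3 netrin genes tested all had positive values, and Ntn4 rose. Ntn4, a basement membrane netrin that binds laminin, had 665, 690, 751 and 701 normalized counts in Control and 1450, 709, 2264 and 1467 in Notch3IC. In Sets 1, 3 and 4 the Notch3IC library was above all Control libraries, and in Set 2 the libraries differed by 0.04 on the log2 scale. It rose by 1.07 ± 0.29 on the log2 scale (adjusted p = 0.0918). The call held in 1 of the 8 fits without a single library, the one that dropped Notch3IC of Set 2 (1.30, adjusted p = 0.00385); the others gave 0.79 to 1.10 with adjusted p of 0.137 to 0.237, and scaling by library totals alone gave 1.03 (adjusted p = 0.106).

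Ntn1, the classical netrin of axon attraction, had 118, 79.9, 54.5 and 43.6 normalized counts in Control and 209, 215, 107 and 145 in Notch3IC. It was higher in every set, though the Notch3IC library of Set 3 lay below the Control library of Set 1. Its log2 fold change was 1.19 ± 0.36 (adjusted p = 0.122), and it rose by 1.23 with the set block (adjusted p = 0.0277) and by 1.17 in DESeq2 (adjusted p = 0.0207). Without the Control library of Set 1 it was called at 1.51 (adjusted p = 0.0623). Ntn3, another secreted netrin, had 120, 117, 119 and 61.0 normalized counts in Control and 132, 170, 188 and 167 in Notch3IC. The groups did not overlap, but the value of 0.66 ± 0.25 did not pass the test (adjusted p = 0.194), and 4.46% of its exon bases are shared with other genes. Ntn5 was not tested.

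The netrin receptors had 0 calls among the 4 tested. Unc5b, a repellent netrin receptor that is also found in vessels, had the second highest level per kilobase of the guidance genes in both conditions, at 1730 ± 242 (SD, n = 4) in Control and 2545 ± 652 in Notch3IC. It had 13016, 10099, 10605 and 9590 normalized counts in Control and 17623, 10344, 19909 and 15839 in Notch3IC. Sets 1, 3 and 4 lay above every Control library and Set 2 among them, and the log2 fold change was 0.56 ± 0.20 (adjusted p = 0.184). Neo1, Unc5a and Unc5c had values of -0.12, 0.52 and -0.71. Dcc was at 0 in 7 libraries and at 1 count in the other, and Unc5d at 0 in all.

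Of the 9 EphA genes, 5 were tested and Epha3 rose. EphA3 is a receptor kinase that binds ephrin-A5 with high affinity. Epha3 had 23.8, 42.9, 13.4 and 12.7 normalized counts in Control and 563, 243, 749 and 1217 in Notch3IC. All Notch3IC libraries were well above all Control libraries, with Set 2 holding both the highest Control and the lowest Notch3IC value. It rose by 4.93 ± 0.60 on the log2 scale (adjusted p = 0.0169), and like Plxnd1 it was called in all 8 fits that left out 1 library (4.51 to 5.38). Without both libraries of Set 3 the log2 fold change was 4.70 (adjusted p = 0.215), and without those of Set 4 it was 4.29 (adjusted p = 0.218). Per kilobase it went from 2.67 to 79.7.

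Epha2, the EphA gene with the highest level per kilobase and a receptor common in epithelia, had 8573, 3755, 5420 and 5668 normalized counts in Control and 5031, 3765, 2930 and 2636 in Notch3IC. The groups overlapped, and the log2 fold change was -0.71 ± 0.28 (adjusted p = 0.225). Per kilobase Epha2 stood at 1253 ± 429 (SD, n = 4) in Control and 769 ± 230 in Notch3IC, so in Notch3IC cells it was still above Epha3. Epha1, Epha4 and Epha7 had values of -0.17, -0.13 and 0.50. Epha5 and Epha8 had 0 counts in all libraries, and Epha6 and Epha10 were not tested.

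Among the 5 A-class ephrin genes, all tested, 0 were called. Efna5 had the highest level per kilobase, with 2207, 3663, 2379 and 2272 normalized counts in Control and 1388, 3128, 1337 and 1449 in Notch3IC. Both libraries of Set 2 stood above the rest of their condition, and the log2 fold change was -0.53 ± 0.31 (adjusted p = 0.413). Efna4 had 127, 153, 121 and 96.7 normalized counts in Control and 165, 155, 208 and 213 in Notch3IC. The groups were separate by a narrow margin in Set 2, and the value of 0.58 ± 0.19 did not pass the test (adjusted p = 0.152). Efna1, Efna3 and Efna4 lie together on the minus strand of chromosome 3, from chr3:89271733-89281142 to chr3:89333390-89338028 (GRCm38). Their values were 0.17, 1.11 and 0.58, none called, and 14.1% of the exon bases of Efna3 and 10.5% of those of Efna4 overlap a gene on the other strand, whose reads cannot be told apart without strand.

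The order of levels per kilobase among the receptors differed between the conditions at Plxnd1, and Epha2 and Plxna1 changed places. In Control cells the order was Plxnb2, Unc5b, Epha2 and Plxna1, and Epha2 and Plxna1 (991 ± 380) differed by less than their SD. In Notch3IC cells the order was Plxnb2, Unc5b, Plxnd1 and Plxna1 (924 ± 227), then Epha2 (769 ± 230). Plxnb2 and Unc5b differed by less than the larger SD, as did Plxnd1 (1094 ± 577) and Plxna1, and Plxna1 and Epha2. Among the ligands, Sema3c (1600 ± 457) was first in Control, followed by Slit3 (886 ± 402), and in Notch3IC Slit3 (1335 ± 213) was first, followed by Sema3c (578 ± 724), whose SD reflects the high library of Set 2.

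Promoter sequences are shown for the 3 genes with the largest rise and for Sema6d, the called gene whose window held both motifs searched. The windows, from RefSeq (GRCm38.p6), span 250 bases before to 50 after a gene start and were found for 51 of the 60 genes, as 67 windows. Dcc, Ntn1, Plxna1, Plxna4, Sema3b, Sema3f, Sema6a, Slit1 and Unc5d were not matched. The letters TGGGAA, the core bound by Rbpj, the DNA-binding partner of Notch, and CACGTG, an E-box form bound by Hes and Hey proteins, were searched on both strands and do not overlap each other. Capitals mark matches, with TTCCCA as the reverse complement of TGGGAA. Plxnd1 (chr6:115994956-115995255, minus strand) and Epha3 (chr16:63864126-63864425, minus strand) held neither. Sema3g (chr14:31217623-31217922, plus strand) held 1 match of TGGGAA, and the first of 2 windows of Sema6d (chr2:124089719-124090018, plus strand) held 2 and 1 of CACGTG.
Plxnd1: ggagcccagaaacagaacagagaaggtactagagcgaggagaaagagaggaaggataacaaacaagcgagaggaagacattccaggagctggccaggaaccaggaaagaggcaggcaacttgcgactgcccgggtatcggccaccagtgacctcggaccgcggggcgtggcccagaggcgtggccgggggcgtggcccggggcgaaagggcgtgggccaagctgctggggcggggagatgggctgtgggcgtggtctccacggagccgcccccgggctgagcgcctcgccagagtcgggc
Epha3: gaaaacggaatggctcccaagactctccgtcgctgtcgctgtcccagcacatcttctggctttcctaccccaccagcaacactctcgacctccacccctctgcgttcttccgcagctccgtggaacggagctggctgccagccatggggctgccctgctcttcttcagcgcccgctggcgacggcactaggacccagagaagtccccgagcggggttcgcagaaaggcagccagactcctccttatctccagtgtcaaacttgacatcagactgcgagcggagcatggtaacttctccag
Sema3g: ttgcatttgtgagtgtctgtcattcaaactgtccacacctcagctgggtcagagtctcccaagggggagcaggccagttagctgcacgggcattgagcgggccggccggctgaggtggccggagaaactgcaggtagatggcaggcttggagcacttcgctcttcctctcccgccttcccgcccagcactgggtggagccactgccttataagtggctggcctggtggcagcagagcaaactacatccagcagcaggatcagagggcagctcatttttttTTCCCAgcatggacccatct
Sema6d: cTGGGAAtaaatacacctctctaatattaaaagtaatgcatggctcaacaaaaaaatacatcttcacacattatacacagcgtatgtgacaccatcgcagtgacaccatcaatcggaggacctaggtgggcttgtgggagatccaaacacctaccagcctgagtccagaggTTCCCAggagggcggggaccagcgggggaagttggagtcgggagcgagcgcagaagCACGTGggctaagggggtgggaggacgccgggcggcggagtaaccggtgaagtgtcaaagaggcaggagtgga

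TGGGAA was found in 16 of the 67 guidance gene windows (23.9%), and in 25.6% of all 32851 windows. CACGTG was found in 5 (7.46%), and in 7.15% of all. Of the called genes with a window, Sema3g, Sema6d and Ntn4 held TGGGAA, and Plxnd1, Epha3, Slit2 and Robo1 did not. A match is a description of the letters and not a binding site, and no match speaks for this window alone.

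Genes known to act with these families as co-receptors, adaptors or effectors were counted as well, and 54 such partners were in the files. Of the 48 tested, 3 rose and 0 were called lower, beside 3.4% and 0.74% of all genes, with a median log2 fold change of 0.10. At an unadjusted p under 0.05, 15 passed in either direction, beside 11.8% of all genes higher and 6.65% lower, and DESeq2 called 4 higher and 1 lower, beside 5.05% and 1.37%. Mical1, an oxidase of actin that acts downstream of plexins, had 10.9, 3.58, 5.74 and 4.75 normalized counts in Control and 227, 19, 308 and 223 in Notch3IC, without overlap, and rose by 4.93 ± 0.81 on the log2 scale (adjusted p = 0.0247). An overlapping gene on the other strand shares 15.0% of its exon bases. Rgma, a ligand of neogenin, the product of Neo1, had 182, 181, 191 and 139 in Control and 605, 262, 799 and 798 in Notch3IC, and rose by 1.83 ± 0.33 (adjusted p = 0.0288). Srgap3, a GTPase-activating protein that binds Robo1, had 37.7, 37.0, 39.2 and 19 in Control and 77.1, 138, 75.4 and 150 in Notch3IC, and rose by 1.73 ± 0.34 (adjusted p = 0.0386). All 3 calls were lost when Control of Set 3 or Control of Set 4 was left out (log2 fold changes of 1.53 to 4.89, adjusted p of 0.104 to 0.116), which gave 0 partner calls, and that of Srgap3 also when Notch3IC of Set 4 was (1.54, adjusted p = 0.127).

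The neuropilins, co-receptors of the class 3 semaphorins, were not called. Nrp1 had 2551, 2844, 2909 and 2833 normalized counts in Control and 4531, 2673, 3997 and 4016 in Notch3IC, with Set 2 among the Controls, and a log2 fold change of 0.45 ± 0.15 (adjusted p = 0.161). Nrp2 had 3351, 4875, 3722 and 4349 in Control and 2249, 4103, 1722 and 2564 in Notch3IC, and a log2 fold change of -0.62 ± 0.25 (adjusted p = 0.243). With the set block the partner calls became 4 higher, beside 5.19% of all genes, with Dpysl3 added (1.98, adjusted p = 0.0427), and 2 lower, beside 2.53%, the receptor kinase gene Mst1r (-1.46, adjusted p = 0.0237) and Dpysl5 (-2.00, adjusted p = 0.0329). Dpysl3 and Dpysl5 belong to the collapsin response mediators, which act downstream of semaphorins.

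Markers of the labelled tissue and of other cell types were read from the same fits, and calls were made in some lists and not in others. Of 9 ovarian surface and mesothelial markers, 8 were tested, all with negative values, and Msln (-2.60, adjusted p = 0.0625) and Upk1b (-2.19, adjusted p = 0.0762) fell. With the set block 5 of the 8 fell, adding Krt19 (-2.10, adjusted p = 0.0288), Upk3b (-1.98, adjusted p = 0.0319) and Lrrn4 (-1.91, adjusted p = 0.0382). DESeq2 called 5 of the 9 lower: Msln, Upk1b, Krt19, Upk3b and Krt7, which edgeR did not test (DESeq2 -3.23, adjusted p = 0.0465). It did not call Lrrn4 (DESeq2 adjusted p = 0.29). The sum of the markers was 24695, 45005, 71914 and 68659 normalized counts in Control and 7283, 28398, 25255 and 19463 in Notch3IC, with Upk3b first by its mean over the 8 libraries, so the markers of the labelled tissue were present in all libraries. Of 9 fibroblast and mural markers, 5 were tested and Pdgfrb (5.99) and Cspg4 (4.20) rose, each with an adjusted p of 0.0169. Pdgfra (0.49, adjusted p = 0.592) and Dcn (-0.47, adjusted p = 0.809) were not called, and Dcn was lower in all 4 sets. The set block added Acta2 among the higher genes (adjusted p = 0.0362). DESeq2 called 3 of the 9 higher: Pdgfrb, Cspg4 and Rgs5, which edgeR did not test (DESeq2 3.85, adjusted p = 0.000371). It did not call Acta2 (DESeq2 adjusted p = 0.536). Their sum was 36839, 26981, 19649 and 13549 in Control and 81480, 31615, 44406 and 38250 in Notch3IC. Acta2 was first among them by its mean over the 8 libraries. The part of these cell states in the guidance results was not tested.

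Of 9 endothelial markers, which bear on Plxnd1 and Sema3g, 3 were tested. Cldn5 was at 0 in every library, Cdh5 had at most 2 raw counts in any, and the most abundant, Esam, fell by 1.64 on the log2 scale (adjusted p = 0.0596). The other tested ones, Pecam1 and Kdr, had log2 fold changes of 0.60 and 0.51 and were not called. The sum, nearly all from Esam (a mean of 630 normalized counts over the 8 libraries, beside 17.5 for the next gene), was 585, 939, 1190 and 1202 normalized counts in Control and 181, 310, 510 and 378 in Notch3IC. Of 8 leukocyte markers, 2 were tested, and Csf1r rose by 1.52 (adjusted p = 0.0719) from 6.70 to 11.9 normalized counts in Control to 14.6 to 40.2 in Notch3IC. The other tested one, Cd68, was lower in all 4 sets and was not called (-0.40, adjusted p = 0.610). Cd3e and Emr1 were at 0 in every library. The leukocyte sum was 56.5 to 128 in Control and 82.0 to 121 in Notch3IC, with Cd68 first by its mean over the 8 libraries. Of 9 neuron and glia markers, 3 were tested, 0 were called, Rbfox3 and Gfap were at 0 in every library, and Tubb3 made up most of a sum of 838 to 1068 in Control and 889 to 1384 in Notch3IC.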

How the data were processed

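RNA of 8 libraries (Control and Notch3IC lines of Sets 1 to 4) was analysed. The authors deposited a table for each library with whole-number read counts by gene symbol, not normalized. Reads were single-end and from polyadenylated RNA, and the submitters' processing notes name TopHat, Cufflinks, DESeq and the build mm9; the annotation and the strand setting were not given in the sources used here. Promoters and positions come from other builds of the mouse genome (RefSeq GRCm38.p6, GENCODE M21 on GRCm38) and were joined by symbol, never by coordinate. Levels per kilobase use the GENCODE exon length.

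Counts were compared with edgeR 4.0.16 in R 4.3.3 (TMM, filterByExpr, robust quasi-likelihood F test), fitted on all genes, with Benjamini-Hochberg adjustment over the 12430 tested. Calls needed an adjusted p under 0.1 and a change of 1 log2 unit or more either way, the study's thresholds. The SE is the log2 fold change divided by the square root of F. Normalized counts are counts over the TMM-scaled library size, times the mean library size, and a pseudocount of 0.5 enters the ratios of a set. Each set is a matched pair by the study's description: deviations from the condition means correlated at 0.79, 0.41, 0.57 and 0.43 within Sets 1 to 4 and at -0.51 to 0.40 across sets. The fit without the set stayed the main one, since the study names no set term. Alternatives were DESeq2 1.42.0, other normalizations and filters, the set block, other thresholds, and leaving out each library or set; the block with each set left out was chosen after seeing the data. Figures were drawn with Python 3.11.15 and Matplotlib 3.10.9.

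The members, gene lists and motifs were chosen with earlier results of these data known. Values in every library are given for members called, those called with the block or DESeq2, those with the highest level per kilobase in their family, and those whose conditions do not overlap. Of the partners, Nrp1, Nrp2 and the called ones are named, with Notch3, Hey1, Heyl and Nrarp as the check. The SDs and SEs cover the spread between lines and the counting error together.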

Additional observations from a re-analysis of the deposited data

Results flagged for a closer look

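Among 57 groups of 4 libraries examined, each a named gene in 1 condition, 8 held a library whose gap to its nearest neighbour passed Dixon's 95% limit for groups of 4. Chance gives about 1 in 20, or 2.85 of 57, for independent groups of genes named in advance. These groups share the same libraries and include genes named for their calls, so the excess was not tested. Of the 8, 5 were libraries of Set 2. In the Notch3IC library of Set 2, Sema3c stood at 11846 normalized counts, with the other Notch3IC libraries at 1050 to 2199, and Sema3d at 4871, with the others at 718 to 1021. Efna5 stood high in both libraries of Set 2, at 3663 in Control against 2207 to 2379 and at 3128 in Notch3IC against 1337 to 1449. Robo2 stood at 150 in the Control library of Set 2, against 35.7 to 43.0.

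The other 3 were in Sets 1 and 4. Sema4f stood at 716 in the Control library of Set 1, against 65.8 to 88.3 in the other Control libraries. In the Control library of Set 4, Ntn3 stood low at 61.0 against 117 to 120, and Srgap3 at 19 against 37.0 to 39.2.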

How the results depend on the processing

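Against 8 higher calls with all libraries, leaving out 1 library or 1 set gave 0 to 10 higher calls. Dropping Control of Set 3 or 4 gave 2, Plxnd1 and Epha3 (0.596% and 0.789% of all genes), and dropping Notch3IC of Set 3 or 4 gave 3 (1.61% and 1.24%). Dropping both libraries of Set 3 or of Set 4 gave 0, where 1 of 12418 and 0 of 12378 genes were called higher. At an unadjusted edgeR p under 0.05, these fits without Set 3 and without Set 4 gave 8 members higher each, and 2 and 1 lower. Over all genes, 1101 of 12418 and 1011 of 12378 passed that limit in either direction. An adjusted p under 0.05 with all libraries left 3, and its share of all genes was not counted. The block without Set 1, 3 or 4, chosen after seeing the data, gave 0, with 0.368%, 0.475% and 1.04% of all genes, and without Set 2 it gave 12, with 7.24%. Lower calls were 0 with all libraries (0.74% of all genes) and 5 with the replicate block (2.53%). Leaving out a library or set gave 0 to 5, with 5 when Notch3IC of Set 2 was dropped (2.42%) and 3 without Set 2 (1.83%). The block gave 6 without Set 2 (3.41%) and 0 without Set 1, 3 or 4 (0.184%, 0.177% and 0.242%). With no fold-change limit 1 was called lower, Sema3a, and the share of all genes at that setting was not counted. Sema4f ran from -2.49 to 0.34, reversing when Control of Set 1 alone was dropped and at -0.91 without Set 1. Partner calls, 3 in all, were 5 with DESeq2 (5.05% of all genes higher and 1.37% lower) and 6 with the replicate block (5.19% and 2.53%). They were 5 with no fold-change limit, again without a counted share of all genes. Leaving out a library or set gave 0 to 6 partner calls, with 6 when Notch3IC of Set 2 was dropped (5.58% and 2.42%). The block without Sets 1, 2, 3 and 4 gave 1, 9, 1 and 2, beside the shares of all genes given above for these fits. Members without overlap, 7 with all libraries, were 7 to 23 when 1 library was left out (11.5% to 23.5% of all genes) and 19, 25 and 11 without Sets 1, 2 and 3 (25.6%, 29.4% and 13.7%), where fewer libraries are compared. The median log2 fold change was -0.06 to 0.17 on leaving out a library or set. The calls that the replicate block changed are named in the report, and it changed no other call among members, partners and markers. RLE and upper-quartile normalization called the same 8 members (3.35% and 3.47% of all genes higher). Library totals alone or at least 10 counts in every library called 6 of them (3.18% and 2.61%). Slit1 could not be tested without Set 3 or Set 4, where it did not pass the filter. Where a cause is not stated, the cause was not tested. Low counts kept 12 of 60 members from the edgeR test, and 4 of them had 0 counts in every library. The part of depth was not tested. Of the 12, DESeq2 and the fit without a filter called Sema6a.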
